A study of Mus musculus with 14 samples.

Results

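The response of Tert+ cells of the mouse salivary gland to radiation was measured here by RNA sequencing of 7 of the 14 libraries in the series, chosen by the sample titles. Of these 7, 4 came from cells sorted after 15 Gy of radiation (RT) and 3 from cells sorted without RT. All groups came from adult TertCreERT2/+ Rosa26LSL-tdTomato/+ mice, in which tamoxifen-activated Cre recombinase is made from 1 copy of the Tert locus and switches on the red reporter tdTomato; unirradiated controls carry both alleles too. Submandibular glands were dissociated and live cells were sorted as DAPI-negative and EpCAM-positive, and Tert+ cells are the tdTomato-positive ones. Because the reporter stays on once recombined, a sorted cell need not express Tert at the time of sorting. The other 7 libraries, 3 without and 4 with RT, came from the tdTomato-negative (Tert-) cells of the same gate and are used for comparison only. The protocol text calls the sorted populations TertHigh and TertLow. Neither the time from RT to sorting nor the tamoxifen schedule is in the labels, and nothing there says that replicates are separate mice; the p-values therefore reflect only how these libraries vary, which may be technical. In 14 of 14 libraries the title matched the description while a separate cell type field named the opposite population; the names Tert+ and Tert- follow the titles, and if the field were right the 7 libraries described would be the tdTomato-negative ones.

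Ionising radiation breaks DNA, and the damage kinases ATM and ATR stabilise the transcription factor p53, which switches on Cdkn1a and other genes that stop the cell cycle. Salivary glands lose fluid secretion after radiation although their acinar cells divide slowly, and lymphocytes, which also live in the gland, are among the most radiation-sensitive cells of the body. Germinal centres are sites where activated B cells divide rapidly, mutate their antibody genes and switch antibody class, under the control of the repressor Bcl6.

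The 7 libraries held between 5986984 and 15943597 counts each, spread over 16289 to 18510 detected genes. Transcripts of B cells were abundant in each library, beside secreted products of the gland. Epcam, the surface protein of the sort, had 29.7 to 126.1 CPM (counts relative to the library total scaled by the trimmed mean of M values, the usual edgeR unit), Cd79a, a chain of the B cell receptor, 2606 to 3923 CPM, and Cd74, the invariant chain of antigen presentation, 23150 to 30570 CPM. The basal keratin Krt5 was at 0 in 3 of the 7 libraries. The tubule protease Klk1 had 543.7 to 4789 CPM and the acinar gene Smgc 256.9 to 2544 CPM. So the sort label, EpCAM-positive gland cells, did not match the abundant B cell markers, and the libraries are called Tert+ only by their titles. The summed share of the 20 mature B cell genes was 2.14% to 3.39% of counts without RT and 2.52% to 3.06% after RT. Acinar genes took 10.3%, 0.384% and 0.751% of counts without RT and 1.26%, 2.85%, 2.13% and 0.466% after RT, so unirradiated replicate 1 stood apart from the other 6 libraries. In unirradiated replicate 1 and irradiated replicate 2 the acinar share was above that of the mature B cell genes. On the principal components of the 7 libraries, unirradiated replicate 1 (87.2) and irradiated replicate 4 (-119.4) lay at opposite ends of the second axis, which held 21.9% of the variance. In bulk RNA, fewer cells of a type and less RNA per cell cannot be told apart.

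Other measures moved with RT. Mitochondrially encoded genes took 0.914%, 0.625% and 0.418% of counts without RT and 1.73%, 2.46%, 2.57% and 1.44% after RT, with no overlap. Non-coding nuclear genes took 1.41%, 0.985% and 0.887% without RT and 1.30%, 1.599%, 1.55% and 1.36% after RT, with unirradiated replicate 1 inside the irradiated range. The slope of a gene's level on its length was -0.05, -0.12 and -0.10 log2 CPM per doubling of length without RT and 0.01, 0.08, 0.02 and -0.03 after RT. The slope was thus higher in each irradiated library than in each unirradiated one. In irradiated replicate 4 it was still negative and close to that of unirradiated replicate 1. The part of gene length in the results below was not tested beyond the correction for length given with them. The irradiated Tert+ libraries bear numbers 9, 11, 13 and 15 in their names and the unirradiated ones 1, 5 and 7, so an effect of numbering order and one of RT cannot be told apart.

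**Figure D1:**
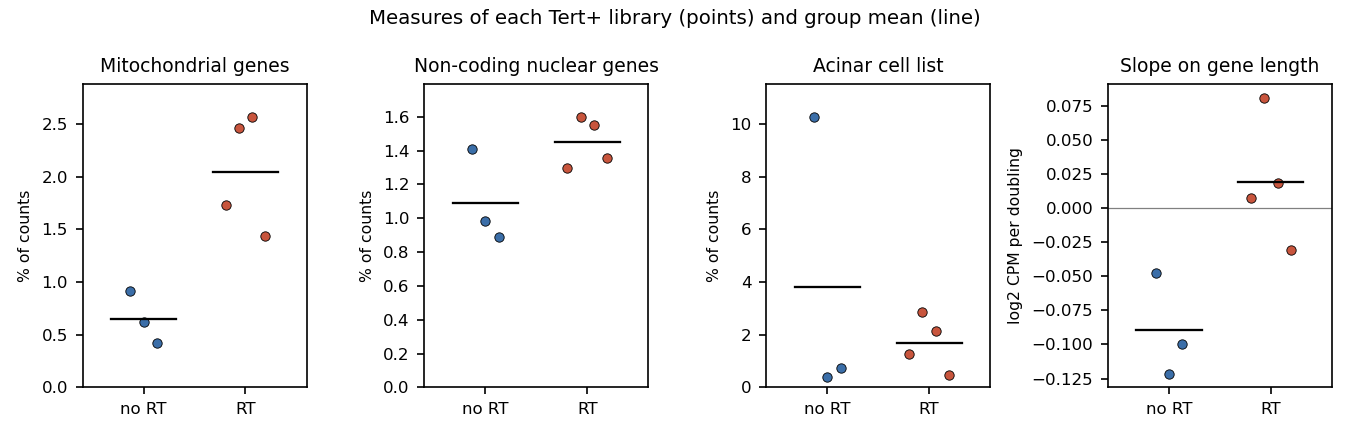
Share of counts (percent) from mitochondrially encoded genes, non-coding nuclear genes and the acinar cell list, and slope of log2 CPM on gene length, in each Tert+ library without and with RT; points are libraries and lines are group means. Mitochondrial shares do not overlap between the groups, and 1 unirradiated library holds 10.3% acinar counts.

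Tert itself, the locus that carries the Cre allele, was read at 0, 7 and 8 counts in the unirradiated libraries and at 0, 52, 34 and 15 counts after RT. Mean levels were 0.350 and 3.58 CPM, and the ranges overlapped at 0. The difference of 3.23 CPM was within what relabelling the 7 libraries gives (exact two-sided permutation test, p = 0.257; the smallest p this design allows is 0.0286). Tert was also read in the Tert- libraries, at 22, 28 and 13 counts without RT (1.62, 2.447 and 1.365 CPM) and at 0, 0, 9 and 15 counts after RT. Without RT each Tert- library lay above every Tert+ one. Whether this bears on the opposite names in the cell type field was not tested. Among the 20 telomerase and shelterin genes tested, none passed the threshold, against 1.98% of all genes tested, and the median log2 fold change was -0.07.

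Across the 15915 genes with enough counts to test, 315 differed between irradiated and unirradiated Tert+ cells at an adjusted p of 0.05 (edgeR quasi-likelihood test over the 14 libraries, Benjamini-Hochberg), 1.98% of those tested. Of these, 176 (1.11%) were higher and 139 (0.873%) lower after RT. At these shares a gene list of the sizes used below holds few calls or none. A list with no call or a lone call is therefore not set apart from all genes. By number of members called, the lists with most lower genes were those of germinal centre B cells (9 of 20), DNA replication (6 of 42) and cholesterol synthesis (5 of 23). Those with most higher genes were mitochondrially encoded genes (8 of 15), nuclear speckle and splicing (5 of 31) and interferon response (4 of 40). At an unadjusted p of 0.05, 2859 genes (18%) passed, and for 2471 genes (15.5%) the 3 unirradiated and 4 irradiated libraries did not overlap. Among the genes past the adjusted threshold, 175 of the 176 higher and 137 of the 139 lower did not overlap. Lack of overlap in a called gene therefore adds little to its call. The median log2 fold change (log2FC, RT over no RT) over all genes tested was -0.001. Of the higher genes 118 rose more than 2-fold, and of the lower genes 72 fell more than 2-fold. Without unirradiated replicate 1 and irradiated replicate 4, the pair that stood apart, 416 genes passed (219 higher and 197 lower; a choice made after the data were seen), among them 8 lower germinal centre genes, 6 of replication, 6 of cholesterol synthesis and 9 higher mitochondrially encoded genes, but 1 higher chaperone, 1 chromatin remodeller, 1 snoRNA host gene and 1 CDK inhibitor. With counts scaled by library totals alone, 283 genes passed, of which 206 were higher and 77 lower, and the median of all genes moved to 0.08. Without unirradiated replicate 2 or 3 only 22 or 21 genes passed, and without irradiated replicate 1, 2 or 3 the number was 187, 100 and 101. Leaving out a Tert- library, which shares in the estimate of spread, gave 507 without unirradiated replicate 1 and 188 and 192 without irradiated replicates 2 and 3. In all, 12 of the 315 genes passed in each of the 14 fits that left out 1 library. Of these, 11 are named here after their values were seen: Mef2b, Basp1, Nuggc, Mcm5, P2ry6, Eno1b and the pseudogene Gm4735 among the lower genes and Zfas1, Chd7, Zfc3h1 and Gm6297 among the higher. In a fit of the 7 Tert+ libraries alone, only 46 of the 315 passed, and P2ry6 and Gm6297 were not among them. P2ry6 also lost its call with limma voom.

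**Figure D2:**
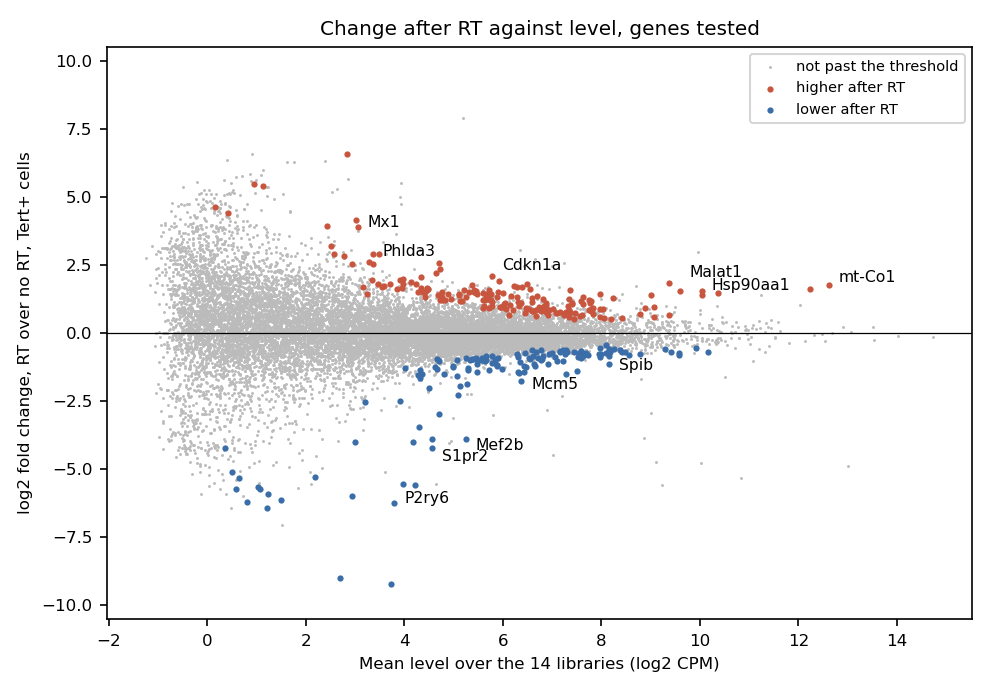
Log2 fold change after RT in Tert+ cells (y axis) against the mean level over the 14 libraries (x axis, log2 CPM) for each gene tested; genes with 0 counts in 1 group are drawn at the bound that 3 counts give. The 176 higher genes (red) and 139 lower genes (blue) reach from rare transcripts to abundant ones such as mt-Co1.

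Of the 20 germinal centre B cell genes tested, 9 fell and 1 rose, with a median log2FC of -1.27 against -0.001 over all genes. Mef2b, a transcription factor that drives Bcl6, had 67.6, 119 and 138 CPM without RT and 4.18, 4.04, 11.5 and 9.496 after RT. It fell by 3.89 on the log2 scale (SE 0.46, adjusted p 0.0014, edgeR). Basp1, a membrane-bound signalling protein, had 25.2, 56.5 and 47.4 CPM without RT and 4.71, 1.94, 6.41 and 2.65 after RT and fell by 3.45 (SE 0.50, adjusted p 0.00787, edgeR). In both genes the lowest unirradiated library was replicate 1, and it still lay above every irradiated library. Nuggc, a nuclear GTPase of germinal centre B cells, had 11.1, 33.6 and 19.1 CPM without RT and a single count in the 4 irradiated libraries, a ratio between 154 and 34061 by counting error alone (95% Clopper-Pearson; adjusted p 0.00683, edgeR).

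Genes that position B cells within the germinal centre were among the 9. Rgs13, which damps chemokine receptor signals, had 29.9, 85.9 and 67.3 CPM without RT and 5.66, 3.39, 3.68 and 2.48 after RT and fell by 3.996 (SE 0.76, adjusted p 0.0203, edgeR). S1pr2, the receptor that confines cells to the follicle centre, had 45.3, 74.99 and 101 CPM without RT and 9.41, 0, 6.14 and 0.0855 after RT (log2FC -4.21, SE 0.93, adjusted p 0.035, edgeR). Gcsam, a germinal centre motility regulator, had 39.3, 64.0 and 63.5 CPM without RT and 0.349, 1.29, 3.41 and 0 after RT (log2FC -5.54, SE 1.16, adjusted p 0.0293, edgeR). The irradiated libraries differed among themselves here: S1pr2 was near 0 in replicates 2 and 4 and Gcsam highest in replicate 3, with no overlap with the unirradiated group in either gene.

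Bcl6, the master repressor of the germinal centre state, had 127, 233 and 273 CPM without RT and 109, 98.8, 104 and 106 after RT. It fell by 1.01 on the log2 scale (SE 0.20, adjusted p 0.0238, edgeR), less than the genes above, and unirradiated replicate 1 lay close to the irradiated libraries. Mybl1, a transcription factor of dividing germinal centre cells, had 104 counts in the unirradiated libraries and 0 after RT, at least 34.2-fold lower, taking 3 counts over the group as the floor (adjusted p 0.0372, edgeR). Stap1, a B cell adaptor, went the other way, with 116, 114 and 143 CPM without RT and 161, 198, 199 and 186 after RT (rise of 0.58, SE 0.14, adjusted p 0.0437, edgeR). Without unirradiated replicate 2 or 3, 4 of the 9 lower members still passed in each case.

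Of the class-switched antibody genes on the plasma cell list, 2 fell. Ighg1, the IgG1 constant region, had 46.7, 51.3 and 66.7 CPM without RT and 2.27, 2.42, 0 and 0 after RT and fell by 5.57 (SE 1.06, adjusted p 0.0208, edgeR), and Ighg2c had 6.47, 26.9 and 42.2 CPM without RT and 0.871, 0.323, 0 and 0.257 after RT. These constant regions resemble one another, and how shared reads were counted is not given in the sources used here. Ighg2b, Ighg3 and Igha, the other class-switched genes on the list, did not pass, with log2FC of -2.82, -0.98 and -0.59 and adjusted p of 0.224, 0.646 and 0.613 (edgeR; named after their values were seen). Of the 15 plasma cell genes in all, 2 fell and 0 rose (median -0.59).

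Of 20 mature B cell genes, 1 fell, 0 rose, and the median was -0.13. The member that fell was Spib, a transcription factor of B cells and dendritic cells, with 466, 414 and 481 CPM without RT and 194, 158, 177 and 288 after RT (log2FC -1.15, SE 0.24, adjusted p 0.0289, edgeR). Plcg2, the phospholipase below the B cell receptor, was the 1 of 20 receptor signalling genes that fell (471, 481 and 579 CPM against 308, 338, 254 and 275; log2FC -0.80, SE 0.13, adjusted p 0.0136, edgeR). Irf8, a transcription factor of B cells and dendritic cells, ranged from 770.9 to 1225 CPM without RT and from 508.6 to 777.1 after RT, so its ranges overlapped (log2FC -0.73, SE 0.18, adjusted p 0.0497, edgeR). Summed, the germinal centre list took 0.140% to 0.169% of counts without RT and 0.102% to 0.118% after RT, without overlap, and whether cell number or RNA per cell differed was not tested.

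**Figure D3:**
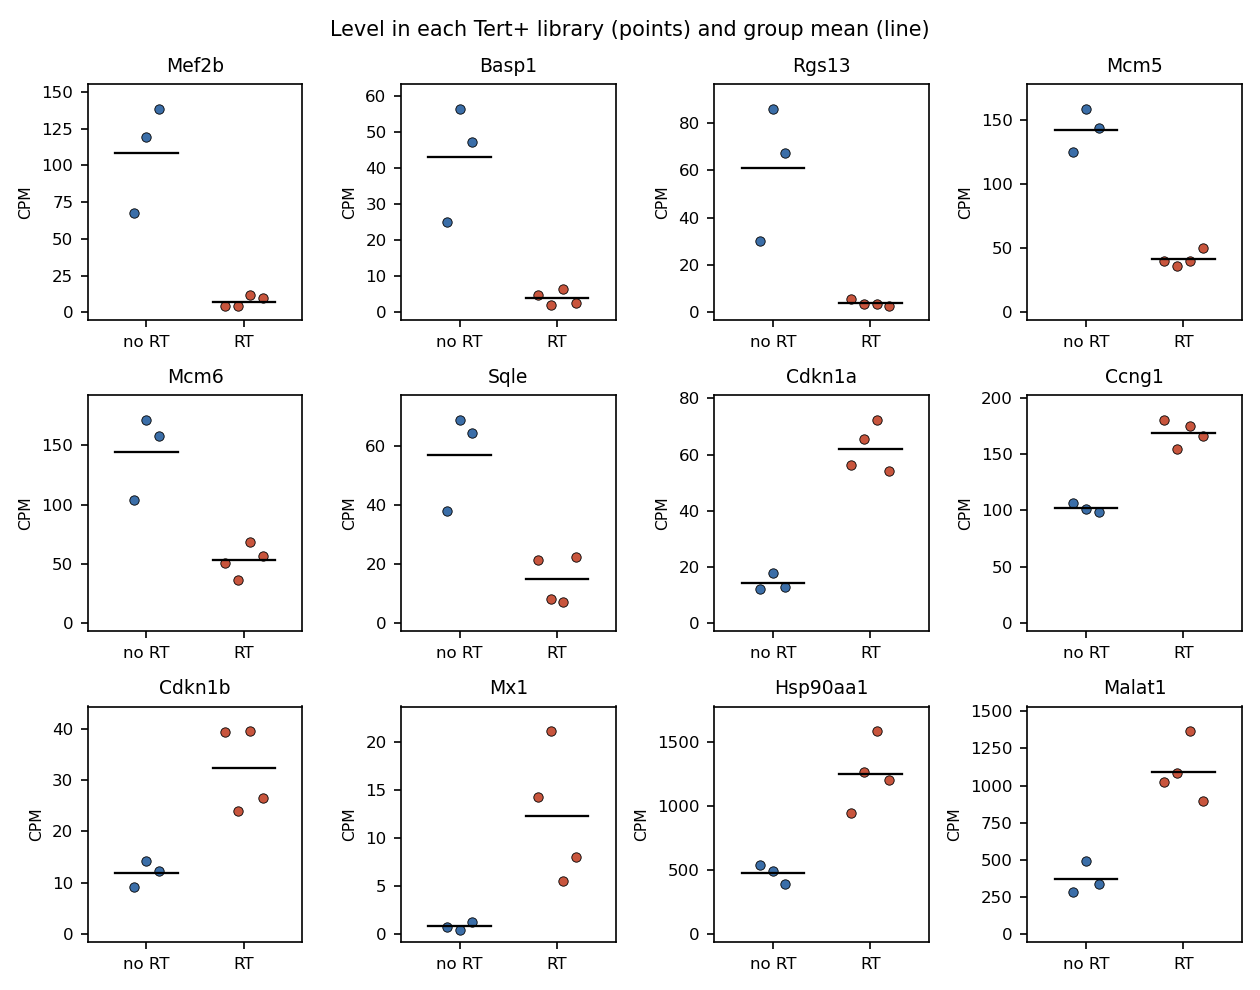
Level in CPM (y axis, linear, from 0) of 12 genes in each Tert+ library without RT (blue) and with RT (red); points are libraries and lines are group means. In each of the 12 panels the unirradiated and irradiated libraries do not overlap, as in 175 of the 176 higher and 137 of the 139 lower genes. Mef2b, Basp1, Rgs13, Mcm5, Mcm6 and Sqle are lower after RT and the other 6 are higher.

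Of 42 DNA replication genes tested, 6 fell, 0 rose, 37 had a negative log2FC, and the median was -0.51 against -0.001 over all genes. Of the 6, 4 were subunits of the MCM helicase, which unwinds DNA at the fork. Mcm5 had 125, 159 and 143 CPM without RT and 40.3, 35.9, 40.1 and 50.3 after RT and fell by 1.77 on the log2 scale (SE 0.19, adjusted p 0.00104, edgeR) that held in all 14 fits leaving out 1 library. Mcm6 had 104, 171 and 158 CPM without RT and 51.1, 36.5, 68.1 and 56.9 after RT and fell by 1.44 (SE 0.26, adjusted p 0.0161, edgeR). Mcm2 and Mcm3 fell, with log2FC of -1.24 (SE 0.22) and -1.43 (SE 0.30) and adjusted p of 0.0161 and 0.0291 (edgeR). For all 4 subunits every irradiated library was below every unirradiated one.

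Outside the helicase, Lig1, the ligase that joins Okazaki fragments, had 19.1, 22.7 and 40.5 CPM without RT and 2.53, 6.30, 8.05 and 2.82 after RT (log2FC -2.49, SE 0.50, adjusted p 0.0256, edgeR). Pold1, the catalytic subunit of polymerase delta, had 121, 133 and 184 CPM without RT and 52.1, 46.6, 60.5 and 93.2 after RT (log2FC -1.21, SE 0.27, adjusted p 0.0372, edgeR). Irradiated replicate 4 was the highest of its group for Pold1 but stayed below all 3 unirradiated libraries. Without unirradiated replicate 2 or 3, 1 of the 6 members passed in each case. Of the 19 nucleotide synthesis genes, 0 passed, against 1.98% of all genes tested, and 19 had a negative log2FC, with a median of -0.29.

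Transcription of MCM and other S-phase genes is classically driven by E2F factors bound near the start site, so the promoters of the 6 replication genes that fell were searched for E2F-type sites. The motifs were TTTGGCGC, TTTCCCGC, TTTCGCGC and TTTGCCGC on either strand, where matches on opposite strands can overlap, in windows from 250 bases before to 50 bases after the RefSeq start sites (GRCm38.p6). A match was found for 5 of the 6 genes (Mcm5, Mcm6, Mcm3, Lig1 and Pold1, not Mcm2), for 15 of the 33 list members tested that had a window (45.5%), for 4.55% of all tested genes with one and for 2.6% of all 27025 genes with one. Among the genes past the threshold, 12 of the 111 lower genes with a window (10.8%) and 2 of the 108 higher ones (1.85%) had a match. A gene counted as matched if any of its windows held a match, so genes with several start sites had more chances. Lig1 has 3 windows and only 1 held a match, while Mcm5, Mcm6, Mcm3 and Pold1 have 1 window each. A match is a description of letters and not a bound site. The sequences that follow are the 250 bases before the start site of Mcm5 (chr8:75109259-75109508, plus strand) and Mcm6 (chr1:128359706-128359955, minus strand), the members with more than 1 match there, and 30 bases around the matches that lie after the start in Mcm3 (chr1:20820266-20820295, minus strand), Lig1 (chr7:13278841-13278870, plus strand, an internal start site) and Pold1 (chr7:44548766-44548795, minus strand); capitals mark the matches.
Mcm5: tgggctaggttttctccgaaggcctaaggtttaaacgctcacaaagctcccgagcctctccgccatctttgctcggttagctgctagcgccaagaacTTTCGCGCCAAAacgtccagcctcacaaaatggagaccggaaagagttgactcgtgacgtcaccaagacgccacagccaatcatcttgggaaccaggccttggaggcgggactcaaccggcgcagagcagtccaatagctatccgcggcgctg
Mcm6: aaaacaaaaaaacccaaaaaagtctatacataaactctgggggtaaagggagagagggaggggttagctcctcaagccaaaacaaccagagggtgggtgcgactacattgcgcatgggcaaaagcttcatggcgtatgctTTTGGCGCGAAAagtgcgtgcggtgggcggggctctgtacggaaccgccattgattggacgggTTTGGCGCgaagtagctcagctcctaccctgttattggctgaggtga
Mcm3: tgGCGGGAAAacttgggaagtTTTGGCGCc
Lig1: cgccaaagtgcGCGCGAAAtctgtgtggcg
Pold1: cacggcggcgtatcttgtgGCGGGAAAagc
In Mcm5 the first match began 153 bases before the start site, and its 2 matches overlap on opposite strands; Mcm6 holds 3 matches, the first 110 bases before the start.

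Of 30 mitosis genes tested, 28 had a negative log2FC and the median was -2.01, but only 1 fell and 1 rose past the threshold. Kif2c, a kinesin that removes faulty spindle attachments, had 260 counts in the 3 unirradiated libraries and 0 after RT, at least 85.5-fold lower (adjusted p 0.0237, edgeR). Cenpa, the centromere histone variant, had 64.4, 56.3 and 72.9 CPM without RT and 157, 188, 164 and 113 after RT and rose by 1.27 (SE 0.26, adjusted p 0.0269, edgeR), with every irradiated library above every unirradiated one. Among 13 histone genes, of which H2afz and H3f3b are replication-independent variants, Hist4h4 rose (5.13, 7.08 and 6.22 CPM against 22.3, 15.2, 24.6 and 23.4; log2FC 1.79, SE 0.30, adjusted p 0.0136, edgeR) and the other 12 did not pass. Histone genes have close copies, so the value of a single member is less certain.

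Of 33 p53 target genes tested, 3 rose and 1 fell, 25 had a positive log2FC, and the median was 0.31. Cdkn1a (p21; chr17:29090976-29100727, mm10), the inhibitor that stops the cycle after damage, had 12.1, 18.0 and 12.8 CPM without RT and 56.5, 65.5, 72.3 and 54.0 after RT. The rise of 2.11 on the log2 scale (SE 0.49, adjusted p 0.04, edgeR) separated all 4 irradiated from all 3 unirradiated libraries, but the call was lost in 10 of the 14 fits without 1 library (adjusted p up to 0.157). Phlda3, an inhibitor of Akt, had 3.66, 2.66 and 0.835 CPM without RT and 15.6, 12.6, 16.6 and 9.75 after RT, a rise of 2.52 (SE 0.59, adjusted p 0.0416, edgeR). Ccng1, cyclin G1, had 107, 101 and 98.5 CPM without RT and 180.3, 155, 175 and 166 after RT, a tight separation of the groups (rise of 0.73, SE 0.13, adjusted p 0.0167, edgeR).

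Not every target followed. Trp53i11 fell (232, 339.8 and 397 CPM against 183, 169, 200.2 and 198; log2FC -0.78, SE 0.18, adjusted p 0.0368, edgeR). Mdm2, the ligase that degrades p53, had a log2FC of 0.31 (adjusted p 0.405, edgeR) and Bax, which opens the mitochondrial membrane in apoptosis, one of 0.08 (adjusted p 0.898, edgeR); both were named after their values were seen. Among 6 CDK inhibitors, Cdkn1b (p27) rose beside Cdkn1a, with 9.28, 14.2 and 12.2 CPM without RT and 39.3, 23.9, 39.6 and 26.5 after RT (log2FC 1.44, SE 0.25, adjusted p 0.0159, edgeR). None of 23 apoptosis regulators passed (median 0.08), and none of 19 secreted inflammatory factors (median 1.52, or 1.62 with genes at 0 in 1 group set at their bound). At the 1.98% called over all genes tested, lists of this size hold few calls or none. Without unirradiated replicate 2 or 3, 0 of the p53 targets passed.

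Of 34 genes that sense or repair DNA damage, 3 fell and 0 rose, and the median was 0.06. Xrcc6 (Ku70), which holds broken ends for joining, had 71.8, 99.2 and 86.2 CPM without RT and 52.4, 34.9, 34.7 and 36.3 after RT (log2FC -1.115, SE 0.19, adjusted p 0.0136, edgeR). H2afx, the histone variant phosphorylated at breaks, had 69.4, 99.5 and 113 CPM without RT and 40.4, 40.7, 36.7 and 42.7 after RT (log2FC -1.23, SE 0.21, adjusted p 0.0159, edgeR). Rpa1, the single-strand binding protein used in both replication and repair, fell by 0.80 (SE 0.17, adjusted p 0.0291, edgeR). In these 3 genes the groups did not overlap.

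Of 23 genes on the cholesterol synthesis list, 5 fell and 0 rose, 20 had a negative log2FC, and the median was -0.74 against -0.001 over all genes. Sqle, which oxidises squalene, had 37.9, 68.7 and 64.4 CPM without RT and 21.4, 8.24, 7.23 and 22.3 after RT (log2FC -1.93, SE 0.39, adjusted p 0.0256, edgeR), with replicates 2 and 3 the lowest. Fdft1, which makes squalene, had a log2FC of -1.22 (SE 0.25), Hmgcs1, at the entry to the pathway, of -1.36 (SE 0.32), and Cyp51, which demethylates lanosterol, of -1.33 (SE 0.32); their adjusted p were 0.0256, 0.0407 and 0.0432 (edgeR). The groups did not overlap in any of these 4. When unirradiated replicate 2 or 3 was dropped, 1 and 0 of the 5 passed, and 3 passed with a correction for gene length. None of 15 fatty acid synthesis genes passed (median -0.14), against 1.98% of all genes tested.

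Among nuclear genes of energy metabolism the changes were smaller. Of 42 nuclear respiratory chain genes, 3 fell (Cox6a1, Atp5a1 and Uqcrc1), 0 rose, and the median was -0.22. Atp5a1, the alpha subunit of ATP synthase, had 1279.8, 1206 and 1227 CPM without RT and 939, 823, 777 and 832 after RT (log2FC -0.55, SE 0.12, adjusted p 0.0345, edgeR). None of the 42 passed with counts scaled by library totals, where the median was -0.14. Ucp2, an uncoupling protein of the inner membrane, had 945, 1184 and 1253 CPM without RT and 544, 582, 689.5 and 749 after RT (log2FC -0.81, SE 0.14, adjusted p 0.0161, edgeR).

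Of 21 glycolysis genes, 3 fell (Eno1b, Tpi1 and Pkm) and 0 rose, with a median of -0.22. Eno1b, annotated as an enolase and a close copy of Eno1, had 261, 284 and 290 CPM without RT and 108, 94.2, 106 and 114 after RT (log2FC -1.40, SE 0.17, adjusted p 0.00155, edgeR) and passed in all 14 fits without 1 library. Reads shared with Eno1 could enter that value. Pkm, pyruvate kinase, had 734, 846 and 850 CPM without RT and 540, 509, 515 and 614 after RT (log2FC -0.57, SE 0.13, adjusted p 0.0348, edgeR). Of 23 pentose phosphate and glutathione genes, Tkt (transketolase) and Taldo1 (transaldolase) fell, with log2FC of -0.73 (SE 0.15) and -0.62 (SE 0.15), and the median was -0.27. The tricarboxylic acid cycle list had 0 calls in 20 genes, against 1.98% over all genes tested, and a median of -0.33.

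Folding factors of the endoplasmic reticulum were among the lower genes: of 30 unfolded protein response genes 3 fell (Pdia6, Creld2 and Sdf2l1), 0 rose, and the median was -0.28. Pdia6, a disulphide isomerase, had 320.3, 394 and 458 CPM without RT and 221, 195, 188 and 272 after RT (log2FC -0.83, SE 0.16, adjusted p 0.0237, edgeR). Tmbim6, a regulator of endoplasmic reticulum calcium and cell death, had 1498, 1499.7 and 1526 CPM without RT and 1188, 805, 789.7 and 939.6 after RT (log2FC -0.70, SE 0.16, adjusted p 0.0409, edgeR). Its 3 unirradiated libraries were nearly equal, and irradiated replicate 1 was the highest of the other 4.

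Of 15 mitochondrially encoded genes tested, 8 rose, 0 fell, all 15 had a positive log2FC, and the median was 1.61. The most abundant was mt-Co1, a core subunit of complex IV, with 4112, 1711 and 1501 CPM without RT and 7227, 10019, 10478 and 5635 after RT, a rise of 1.77 (SE 0.37, adjusted p 0.0291, edgeR). Next came mt-Cytb, the cytochrome b of complex III, with 3163, 1181 and 1409.9 CPM without RT and 5146, 6732, 7454 and 4128 after RT (log2FC 1.61, SE 0.35, adjusted p 0.0317, edgeR). Complex I was represented by mt-Nd4, with 400.2, 167 and 152 CPM without RT and 743, 1178, 899 and 601 after RT (log2FC 1.84, SE 0.35, adjusted p 0.0208, edgeR). In each of these genes unirradiated replicate 1 was the highest of its group and irradiated replicate 4 the lowest of its own, and the groups did not overlap.

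The other members that passed rose by similar amounts: mt-Nd1 by 1.48 and mt-Nd5 by 1.55 (complex I), mt-Co2 by 1.74 and mt-Co3 by 1.68 (complex IV), and mt-Atp6 by 1.56 (ATP synthase; named after its values were seen). The 16S ribosomal RNA mt-Rnr2 did not pass, with 157.7 to 2180 CPM without RT and 626.8 to 1799 after RT, overlapping ranges, and an adjusted p of 0.918 (edgeR). Copies of mitochondrial sequence in the nuclear genome can share these reads: the unprocessed pseudogenes Gm29216, Gm28661 and Gm28437, which lie close together on chromosome 1, rose by 2.22, 1.70 and 1.91 on the log2 scale (adjusted p 0.00956, 0.0136 and 0.0161, edgeR; named after their values were seen). With unirradiated replicate 2 or 3 left out, 0 of the 15 passed.

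Of 40 interferon response genes tested, 4 rose, 0 fell, 34 had a positive log2FC, and the median was 0.84. Mx1, an antiviral GTPase, had 0.733, 0.443 and 1.29 CPM without RT and 14.3, 21.2, 5.59 and 8.04 after RT, a rise of 3.88 (SE 0.67, adjusted p 0.0156, edgeR). Mx2, its neighbour on chromosome 16, is annotated as a polymorphic pseudogene and rose by 4.14 (SE 0.93, adjusted p 0.0372, edgeR); it was named after its values were seen. Both were higher in irradiated replicates 1 and 2 than in 3 and 4.

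Xaf1, which promotes cell death, had 24.9, 40.5 and 25.2 CPM without RT and 89.6, 65.8, 73.1 and 70.7 after RT (log2FC 1.31, SE 0.23, adjusted p 0.0157, edgeR). Trim30a, a regulator of innate signalling, had 63.3, 106 and 83.4 CPM without RT and 188, 200.1, 154 and 135 after RT (log2FC 1.00, SE 0.20, adjusted p 0.0269, edgeR). Irf7, the factor that amplifies the response, had 50.2, 99.5 and 55.9 CPM without RT and 227, 142, 164 and 79.8 after RT; its ranges overlapped and its adjusted p was 0.0912 (edgeR; named after its values were seen). Among 18 MHC class I and immunoproteasome genes 1 rose, H2-Q6, with 313, 293 and 265 CPM without RT and 589, 525, 579.5 and 488 after RT (log2FC 0.91, SE 0.21, adjusted p 0.0405, edgeR), a member of a family with close copies. In fits without unirradiated replicate 2 or 3, 1 and 0 of the 40 interferon genes passed.

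Of 24 heat shock chaperone genes tested, 3 rose, 0 fell, and the median was 0.42. Hsp90aa1, the inducible HSP90, had 545, 493 and 390 CPM without RT and 951, 1265, 1589.9 and 1203 after RT (rise of 1.40, SE 0.28, adjusted p 0.026, edgeR). Dnajb1, the HSP40 partner of HSP70, had 228, 281 and 150 CPM without RT and 462, 533, 689.9 and 626 after RT (rise of 1.39, SE 0.32, adjusted p 0.0389, edgeR). Hspe1, the mitochondrial HSP10, had 78.2, 84.8 and 84.1 CPM without RT and 126, 139, 125 and 128 after RT (rise of 0.65, SE 0.15, adjusted p 0.0411, edgeR). The inducible HSP70 gene Hspa1a did not pass (adjusted p 0.0808, edgeR), with 216, 159 and 49.0 CPM without RT and 837, 993, 1607 and 1010.5 after RT; its groups did not overlap, but the unirradiated libraries differed among themselves. It too was named after its values were seen. When unirradiated replicate 2 or 3 was dropped, 0 of the 24 passed. None of 28 immediate early genes passed (median 0.23), against 1.98% of all genes tested.

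Of 31 nuclear speckle and splicing genes, 5 rose, 0 fell, and the median was 0.47. Malat1, a long non-coding RNA of nuclear speckles, had 286, 493 and 336 CPM without RT and 1026, 1087, 1368 and 899 after RT (rise of 1.56, SE 0.31, adjusted p 0.0256, edgeR). Tra2a, a splicing activator, had 40.4, 35.03 and 36.7 CPM without RT and 78.5, 92.6, 132 and 67.5 after RT (rise of 1.31, SE 0.26, adjusted p 0.0238, edgeR). Rbm25, a regulator of splice site choice, had 137, 143 and 132 CPM without RT and 265, 284, 225 and 219 after RT (rise of 0.85, SE 0.16, adjusted p 0.0194, edgeR). In these genes the groups did not overlap, and 3 of the 5 members passed with a correction for gene length. Rbm25 was not among those 3 (log2FC 0.49, adjusted p 0.0631, edgeR). With unirradiated replicate 2 or 3 left out, 0 of the 5 passed.

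Of 26 chromatin remodellers, 3 rose, 0 fell, and the median was 0.35. Chd7, an ATP-dependent remodeller, had 116, 141 and 129 CPM without RT and 245, 228, 235 and 255 after RT (rise of 0.90, SE 0.14, adjusted p 0.00923, edgeR), and passed in all 14 fits without 1 library. Chd1 and Chd2 rose by 0.80 (SE 0.18) and 0.62 (SE 0.15), but each kept its call in only 5 of the 14 fits without 1 library. With the correction for gene length the log2FC of Chd2 was 0.34 and its call was lost (adjusted p 0.168, edgeR). Of 14 snoRNA host genes, 2 rose, and the median was 1.01: Zfas1 had 16.1, 21.1 and 18.2 CPM without RT and 52.4, 51.1, 52.5 and 53.04 after RT (rise of 1.498, SE 0.20, adjusted p 0.00297, edgeR), nearly equal within each group, and Snhg15 had 10.99, 15.4 and 13.7 CPM without RT and 55.2, 38.8, 49.3 and 38.6 after RT (rise of 1.76, SE 0.37, adjusted p 0.0288, edgeR). Xist, which coats the inactive X chromosome, rose by 1.43 (SE 0.32, adjusted p 0.0366, edgeR; named after its values were seen). Of 36 cytosolic ribosomal protein genes, 0 passed, against 1.98% of all genes tested, and 34 had a positive log2FC (median 0.26).

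Non-coding classes had more higher than lower calls. Of 560 genes of the class TEC, loci that await experimental evidence, 11 rose and 0 fell, with a median log2FC of 1.16. The 11 are 1.96% of the class, against 1.11% higher over all genes tested. Of 423 lincRNA genes 10 were higher (2.36%) and 1 lower (median 0.63), and of 88 sense-intronic genes 3 were higher (3.41%) and 0 lower (median 1.41). Antisense genes had 6 higher of 518, a share near that of all genes (1.16%), and 0 lower (median 0.84), while protein-coding genes had 125 higher and 134 lower of 12687 (median -0.07). Whether strand was used in counting is not given in the sources used here, so reads of an antisense gene and its partner cannot be told apart. Among protein-coding genes, those of 7439 bases and more had 52 higher and 9 lower genes and a median of 0.14, and those of up to 2393 bases, as many genes, 18 higher and 31 lower and a median of -0.16. With a correction for gene length, 285 genes passed, 181 higher and 104 lower. Among the genes named, Cep295, Tmbim6, Atp5a1, Irf8, Hmgcs1, Tpi1, Taldo1, Uqcrc1, Psmd2, Rbm25 and Chd2 lost their call with it. These shifts moved together with the library measures above, and their part in the gene-level results was not tested further.

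**Figure D4:**
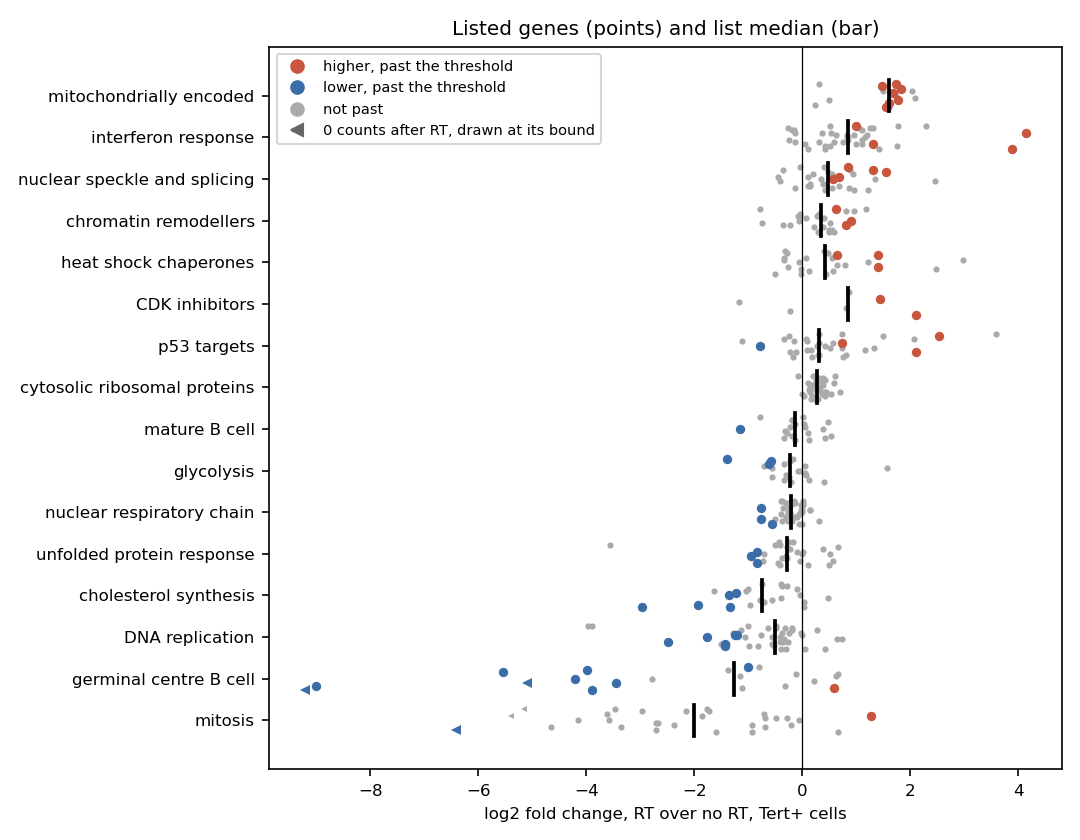
Log2 fold change after RT in Tert+ cells (x axis) of the tested members of 16 gene lists; points are genes, red or blue where past the threshold, bars are list medians, and triangles are genes with 0 counts after RT drawn at the bound that 3 counts give. Germinal centre, mitosis, replication and cholesterol lists lie left of 0, and mitochondrially encoded and interferon lists right of it.

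Of the genes that mark the gland itself, none passed, against 1.98% of all genes tested. At that share, lists of this size hold few calls or none. None of 18 acinar genes (median -1.03), 19 granular convoluted tubule genes (0.55), 20 duct genes (0.27), 11 basal and myoepithelial genes (-0.49), 16 salivary progenitor genes (0.10), 17 saliva secretion genes (-0.33) or 22 Wnt and Notch genes (0.03) was called. The acinar median turned to 0.74 without unirradiated replicate 1, whose acinar share was 10.3%. The kallikrein Klk1, a secreted protease of the tubules, had 4758, 1544 and 1625 CPM without RT and 937, 2031, 4789 and 544 after RT, overlapping (adjusted p 0.898, edgeR). Krt18, a keratin of simple epithelium, had 199, 58.7 and 50.5 CPM without RT and 112, 145, 81.2 and 35.5 after RT, overlapping too (adjusted p 0.931, edgeR).

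The lists of other cell types each held at most 1 call, against a share of 1.98% over all genes tested. All 20 T cell genes had a negative log2FC (median -0.77) and 0 passed, and their summed share was 0.0705% to 0.128% without RT and 0.0411% to 0.0862% after RT. Of 9 NK cell genes Eomes, a T-box factor, fell, with 153 counts without RT and 0 after RT, at least 50.3-fold lower (adjusted p 0.0366, edgeR). Its call held in 6 of the 14 fits without 1 library, and in none of the 7 that left out a Tert+ library. Of 18 macrophage genes Ms4a7, a membrane protein of tissue macrophages, rose, with 1.34, 0.379 and 2.28 CPM without RT and 9.85, 5.33, 6.82 and 8.98 after RT (log2FC 2.56, SE 0.58, adjusted p 0.0372, edgeR), while 11 of the 18 had a negative log2FC. The Ms4a7 call held in 5 of the 14 fits and likewise in none of those 7. Irf8, whose call held in 3 of the 14, was the 1 of 12 dendritic cell genes that fell. Monocyte and neutrophil (9 genes), endothelium (7) and fibroblast (8) lists had 0 calls. The red blood cell list had 0 calls in 5 genes, with a median of 5.64, and its share of counts was 0.000108% to 0.00124% without RT and 0.00124% to 0.0129% after RT.

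The list of migration and homing receptors held calls in both directions. P2ry6, a receptor for extracellular UDP, had 8.55, 4.36 and 8.20 CPM without RT and 0.261, 0, 0 and 0 after RT, that is 247 against 3 counts, a ratio of 27.5 to 396.6 by counting error alone (95% Clopper-Pearson; adjusted p 0.00956, edgeR). P2ry10, a lysophospholipid receptor of lymphocytes, had 181, 91.9 and 101 CPM without RT and 293, 216, 302 and 241 after RT (rise of 1.08, SE 0.25, adjusted p 0.0407, edgeR). With S1pr2, these were the 3 of 23 genes on that list that passed. The groups did not overlap in any of the 3.

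Several genes that fell have not been named above. Of 20 amino acid and one-carbon synthesis genes, 1 fell (Gatm), 0 rose, 19 had a negative log2FC, and the median was -0.51. Gatm, which makes the creatine precursor and is 1 of 20 amino acid synthesis genes, had 16.4, 20.4 and 18.2 CPM without RT and 0.0871, 0.485, 4.09 and 0.513 after RT (log2FC -3.90, SE 0.79, adjusted p 0.0256, edgeR). Cpne5, a calcium-dependent membrane-binding protein, had 20.4, 14.2 and 29.5 CPM without RT and 4.88, 4.04, 3.27 and 2.57 after RT (log2FC -2.53, SE 0.41, adjusted p 0.0131, edgeR). Cnn2, an actin-binding calponin, fell by 0.69 (SE 0.16, adjusted p 0.0386, edgeR). All 3 were lower in each irradiated library than in each unirradiated one, as were 137 of the 139 lower genes. Gatm was highest after RT in replicate 3.

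Among the risen genes, Pls3, an actin bundler, had 0.855, 5.06 and 0.759 CPM without RT and 16.6, 18.8, 10.9 and 9.15 after RT (log2FC 2.60, SE 0.64, adjusted p 0.0483, edgeR), with unirradiated replicate 2 the highest of its group; without that library the log2FC was 4.09. Cep295, a centriole assembly factor, had 4.40, 10.1 and 5.24 CPM without RT and 24.3, 23.8, 36.0 and 25.7 after RT (log2FC 2.05, SE 0.46, adjusted p 0.0364, edgeR). Gla, the lysosomal alpha-galactosidase, had 43.1, 42.4 and 23.4 CPM without RT and 119, 112, 156 and 115 after RT (log2FC 1.79, SE 0.43, adjusted p 0.0432, edgeR). Pde8a, a cAMP phosphodiesterase, had 5.50, 2.09 and 5.24 CPM without RT and 12.1, 14.7, 9.82 and 22.9 after RT (log2FC 1.81, SE 0.43, adjusted p 0.0434, edgeR). None of the 4 overlapped between the groups, which was a condition for naming the largest rises and so adds no support. Of the 14 fits without 1 library, Pde8a kept its call in 1, Gla and Pls3 in 3 each and Cep295 in 7. Of the remaining lists with a call, 1 of 26 proteasome genes (Psmd2) fell, 1 of 27 lysosome genes (Gaa) fell and 1 of 26 mitochondrial import genes (Hspe1) rose. Over all genes tested 1.98% were called, so a lone call does not set these lists apart.

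The same comparison in Tert- cells addressed whether the response was shared by the other side of the sort. There, 258 genes (1.62%) passed, 130 higher (0.817%) and 128 lower (0.804%). Of the 176 genes higher in Tert+ cells, 69 were also called higher in Tert- cells (39.2% of the Tert+ and 53.1% of the Tert- calls), and of the 139 lower genes 47 were also called lower (33.8% and 36.7%). In Tert- cells 172 of the 176 and 138 of the 139 had the same sign. The share of equal signs over all genes tested was not counted. In both populations the irradiated libraries bear higher numbers than the unirradiated ones, so equal signs do not tell RT from numbering order. Mcm5 fell there by 1.122 (adjusted p 0.0146, edgeR). Bcl6 fell by 0.95 (adjusted p 0.0327, edgeR), and Ccng1 rose by 0.70 (adjusted p 0.0257, edgeR). Cdkn1a did not pass there: its mean was 47.5 CPM (SD 50.1, n = 3) without RT and 84.0 (SD 10.7, n = 4) after RT, a log2FC of 0.82 (adjusted p 0.359, edgeR).

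The difference between the responses was tested directly, as the log2FC in Tert+ cells minus that in Tert- cells. For 0 of the 15915 genes was it past the adjusted threshold in edgeR (0%), and 578 (3.63%) had an unadjusted p under 0.05; limma voom also gave 0 and DESeq2 gave 12, and leaving out unirradiated Tert+ replicate 1 gave 1 in edgeR. Tert+ and Tert- libraries with the same replicate number and treatment deviated together to some degree (correlations of 0.288, 0.307 and 0.116 without RT and 0.0943, 0.116, 0.0837 and 0.0329 after RT), while the fit treats them as independent. With each such pair as a block, 0 genes passed as well, and 542 had an unadjusted p under 0.05. For Cdkn1a the difference was 1.29 with a 95% interval from -0.08 to 2.67. For Mcm5 it was -0.65 (-1.23 to -0.07, unadjusted p 0.031), and for Bcl6 -0.07 (-0.68 to 0.54). The genes with the smallest p were Sema3b, Ms4a7, Pls3, Slc22a23 and Slc7a11. Sema3b, a secreted guidance protein, had 52 counts without and 0 after RT in Tert+ cells and 4 and 158 in Tert- cells. Slc22a23, a transporter, had 0 and 121 counts in Tert+ cells and 135 and 19 in Tert- cells, and Slc7a11, the cystine importer, 83 and 161 in Tert+ cells and 389 and 3 in Tert- cells. Of these, Ms4a7 rose in Tert+ cells while its mean in Tert- cells was 61.9 CPM without RT and 35.2 after RT, a difference of 3.38 (1.79 to 4.96). Pls3 differed by 3.60 (1.799 to 5.41), with means in Tert- cells of 14.5 CPM without RT and 7.23 after RT. P2ry6 differed by -4.90 (-7.45 to -2.35), with means in Tert- cells of 37.2 and 14.6 CPM. None of these differences passed over all genes, and P2ry6 was named here after its values were seen.

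**Figure D5:**
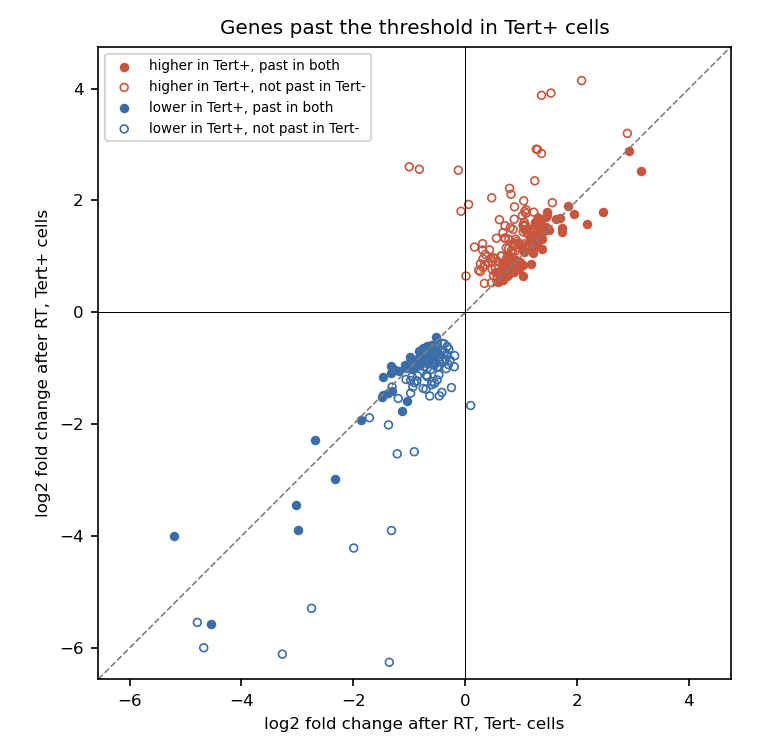
Log2 fold change after RT in Tert+ cells (y axis) against that in Tert- cells (x axis) for 298 of the 315 genes past the threshold in Tert+ cells, the 17 with 0 counts in a group left out; filled points also passed in Tert- cells, and the dashed line marks equal values. Nearly all points lie in the quadrants of equal sign, and because the genes were chosen by their Tert+ values their distance from the line is not a test.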

How the data were processed

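RNA sequencing measured sorted submandibular gland cells in 14 libraries, of which the 7 Tert+ ones (3 without and 4 with 15 Gy) are described and the 7 Tert- ones serve for comparison. The deposited table holds raw counts per gene for 54532 genes; reads were aligned to mm10 with HISAT2, per the submitters' processing notes, and the aligner's version, the counting tool, the use of strand and the treatment of reads with several matches are not given in the sources used here. Gene length is a column of the deposited table, per the file headers, in bases. Libraries were made from 1 ng of RNA, per the labels' protocols, and groups follow the titles.

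Genes were kept by edgeR's filterByExpr on the 4 groups (15915 genes), scaled by the trimmed mean of M values and tested in edgeR 4.0.16 (R 4.3.3) with a robust quasi-likelihood fit over all 14 libraries, so that the groups share 1 estimate of spread. Contrasts were RT minus no RT in Tert+ cells, the same in Tert- cells, and their difference. P-values were adjusted over all genes tested by Benjamini-Hochberg, with a threshold of 0.05. The standard error (SE) is the log2 fold change divided by the square root of the F statistic. A gene with 0 counts in a group was given the bound that 3 counts over the group allow, and genes with 1 to 3 counts a 95% counting interval. Both cover counting error only, since reads are not counted as single molecules here. The steps were tested on simulated data before use.

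The comparison and the 54 gene lists (1130 of 1136 symbols matched) were chosen with earlier results of these data known. Genes named are Tert, the 12 largest rises and 12 largest falls (mean level at or above 3 on the log2 CPM scale, groups not overlapping), the 6 most abundant in each direction, up to 4 members of each list that passed (up to 2 where none did), and the 5 with the smallest p for the difference. By this rule predicted genes, pseudogenes and variable segments are counted and not named; those that are named were chosen after their values were seen. Others named after their values were seen are Mybl1, Bcl6, Stap1, Mcm3, Pold1, Cyp51 and those marked in the text. Alternatives were other scalings, filters, DESeq2 1.42.0, limma 3.58.1 voom, a replicate block, the 7 Tert+ libraries alone, each library left out, and 2 chosen after the data were seen: a gene length correction, and leaving out 2 libraries together. Promoter sequences are from RefSeq (GRCm38.p6). Some list members that passed are counted but not reported here.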

Additional observations from a re-analysis of the deposited data

Results flagged for a closer look

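Among 144 values checked over the 4 irradiated Tert+ libraries, 10 had 1 library far from the other 3; chance alone gives about 1 in 20. Irradiated replicate 3 was high for Cep295 (36.0 CPM, the others 23.8 to 25.7), Gla (156.1 CPM, the others 111.7 to 118.8) and Gatm (4.09 CPM, the others 0.0871 to 0.513). Replicate 1 was high for Xrcc6 (52.4 CPM, the others 34.7 to 36.3) and for Kdr, a receptor of endothelial growth factor (7.41 CPM, the others 0 to 1.03), and alone held counts of P2ry6 (0.261 CPM, the others 0). Replicate 2 was high for Itga6, a laminin receptor of basal epithelium (32.3 CPM, the others 21.3 to 23.2), and Hspe1 (138.5 CPM, the others 125.4 to 127.6), and alone held the single count of Nuggc (0.162 CPM, the others 0). Replicate 4 was low for Chd2 (183.5 CPM, the others 213.5 to 217.4). In P2ry6 and Nuggc the distance rests on 1 to 3 counts.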

How the results depend on the processing

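The number of genes past the threshold in Tert+ cells (315) ranged from 21 (without unirradiated Tert+ replicate 3) to 507 (without unirradiated Tert- replicate 1) over the fits that left out 1 library. It was 1057 with DESeq2 and 49 in the 7 Tert+ libraries alone. Over 7 further planned settings (other scalings, filters and dispersion, and limma voom) and the 2 added ones it stayed within 1.5 times. For Tert- cells (258) the leave-outs gave 18 to 901, DESeq2 1198, and leaving out unirradiated Tert+ replicate 1 and irradiated Tert+ replicate 4 together 493. For the difference between the responses (0) the leave-outs gave 0 to 1, DESeq2 12 and the same pair left out 2; the cause of these shifts was not tested. With the replicate block 265 genes passed in Tert+ cells, 202 of them among the 315, 257 passed in Tert- cells, and 0 for the difference. The replicate numbers did not pair irradiated with unirradiated Tert+ libraries: the correlations of same-numbered deviations were -0.0243, -0.144 and -0.0895. Same-numbered Tert+ and Tert- libraries correlated at 0.116 to 0.307 without RT and at 0.0329 to 0.116 after RT, so not every pair was over 0.1; with these pairs as a replicate block within treatment, 0 genes passed for the difference. Tert differed by 1.62 to 4.43 CPM over the leave-outs, with exact permutation p of 0.1 to 0.4. No named gene that passed changed sign in any setting. The balance of higher and lower calls in Tert+ cells (176 and 139) turned with limma voom (225 and 232), without unirradiated Tert+ replicate 1 (171 and 176) and without irradiated Tert+ replicate 2 (45 and 55), and that in Tert- cells (130 and 128) turned in several settings, such as 106 and 112 without robust estimation. Of the values of named genes without 1 library, 401 lost the call and 1440 did not change side. The 1440 include named genes that did not pass in the main fit and so had no call to lose. Depth limits the genes at 0 after RT, where only a bound can be given.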
